A study of Mus musculus with 6 samples.

Results

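Respiratory complex I, the NADH:ubiquinone oxidoreductase of the mitochondrial inner membrane, was examined through the nuclear genes that encode its subunits and the factors that help to assemble it. Members were taken by gene symbol: the Ndufa, Ndufb, Ndufc, Ndufs, Ndufv and Ndufaf series and Ndufab1, without Ndufa4, a protein now placed with complex IV, and its paralog Ndufa4l2. This gave 45 of the 24984 gene symbols listed: 36 subunits, 8 assembly factors (Ndufaf1 to Ndufaf8) and Ndufb4c, a paralog of Ndufb4 that belongs to no module. Bulk RNA sequencing had been performed on mouse inguinal white adipose tissue, a fat depot under the skin. The groups were Mpst knockout (KO, n = 3) and wild type (WT, n = 3), and both were fed the high-fat diet. Mpst encodes mercaptopyruvate sulfurtransferase, an enzyme of cysteine breakdown that produces hydrogen sulfide and is found partly in mitochondria. The labels do not say how Mpst was deleted or in which cells, nor the strain, sex, age or time on the diet, and they do not say that replicates were separate animals, so the p-values below measure the spread between these libraries.

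Complex I takes electrons from NADH, passes them along a flavin and a chain of iron-sulfur clusters to ubiquinone, and pumps protons across the inner membrane. The N module oxidises NADH, the Q module reduces ubiquinone, and the proximal and distal parts of the membrane arm carry the proton pumps. The catalytic core is made of 7 nuclear-encoded subunits, in the N and Q modules, and of subunits encoded in mitochondrial DNA; the other nuclear-encoded subunits are called accessory and surround the core. Assembly factors join intermediates of the complex, or modify subunits, and are absent from the finished enzyme. White adipocytes hold fewer mitochondria than brown ones and use them for lipid synthesis as well as for respiration.

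The libraries held 8054560, 22458630 and 21565825 counts in KO replicates 1, 2 and 3, against 17394489, 17793003 and 21576075 in WT replicates 1, 2 and 3. The targeted gene had 3, 10 and 9 counts in the KO libraries and 1358, 1394 and 1624 in the WT libraries. Levels are given in CPM, counts scaled to the same normalised library size, and a gene was called when its adjusted p in edgeR's quasi-likelihood test, with Benjamini-Hochberg adjustment over 14065 tested genes, was under 0.05. Adipocyte markers were abundant, with summed levels of 37496 to 46229 CPM in KO libraries and 49510 to 60562 CPM in WT libraries. Skeletal muscle markers summed to 2335 CPM in KO replicate 3 and 970 CPM in WT replicate 2, and to between 46.0 and 152 CPM in the other 4 libraries, which places these 2 libraries apart from the rest.

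Of the 45 members, 43 passed the filter on low counts. Of the 35 subunits tested, 12 fell in KO adipose tissue and 0 rose, and of the 8 assembly factors 0 were called in either direction; 0 members rose in any of the 19 alternative fits, DESeq2 and limma-voom among them. Over all tested genes 2.65% were called lower and 4.76% higher in KO. The median log2 fold change, KO over WT, was −0.54 over the subunits and −0.28 over the assembly factors, beside 0.005 over all tested genes. Without the adjustment for multiple testing, 27 subunits and 2 assembly factors were lower at p under 0.05 and 0 members were higher, where 12.7% of all tested genes were lower and 14.9% higher. In 27 of the 35 subunits and 4 of the 8 assembly factors every KO library lay below every WT library, which was the case for 15.5% of all tested genes. Of the 12 calls, 10 were kept with size factors by relative log expression and 12 with upper-quartile scaling. They depended on single libraries: 0 members were called without KO replicate 1, 2 or 3 or without WT replicate 1 or 2, fits in which 1 to 263 of all genes were called lower, and 25 were called without WT replicate 3, where 8.22% of all genes were called lower, while the subunit median stayed between −0.66 and −0.43 over these 6 fits.

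**Figure D1:**
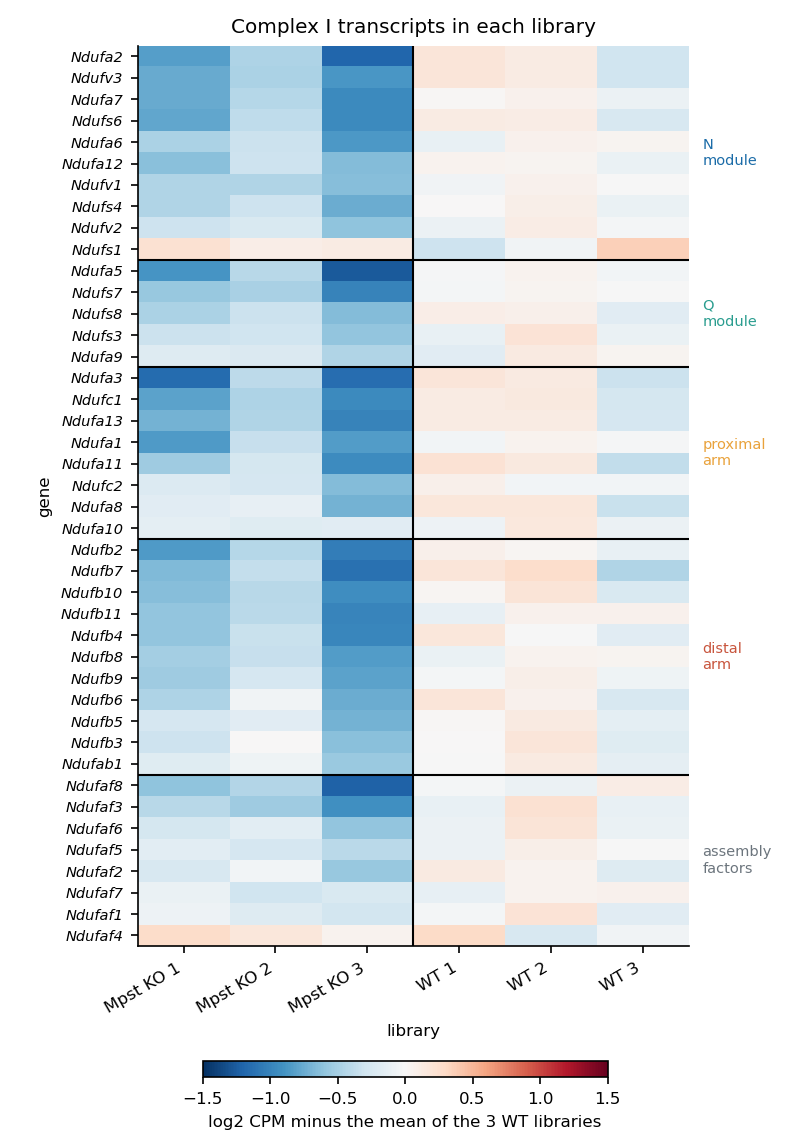
Level of the tested members, all but 1 of them drawn, in the 6 libraries, as log2 CPM minus the mean of the 3 WT libraries, with KO libraries on the left and WT libraries on the right; rows are grouped by module and ordered by fold change. KO replicate 3 is the darkest column and KO replicate 2 the palest of the KO columns, and Ndufs1 and Ndufaf4 are the 2 rows with a positive fold change.

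The N module holds the site at which NADH is oxidised. Of its 10 subunits, 5 fell (Ndufv1, Ndufv3, Ndufs6, Ndufa7 and Ndufa12), and the median log2 fold change was −0.53. Ndufv1 (chr19:4007384-4012806, minus strand), which binds the flavin and NADH, had 207, 206 and 181 CPM in KO libraries, against 272, 295 and 280 CPM in WT libraries. The KO libraries all lay below the WT libraries, and the spread within each genotype was small beside the gap; the log2 fold change was −0.51 ± 0.12 (SE, edgeR adjusted p = 0.0388, n = 3 each). The other core subunits of this module were not called. Ndufv2, which carries an iron-sulfur cluster next to the flavin, had 180, 190 and 147 CPM in KO libraries and 209, 241 and 218 CPM in WT libraries, again without overlap (log2 fold change −0.37 ± 0.14, edgeR adjusted p = 0.122).

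Ndufs1, the largest subunit of the complex and the carrier of several of its iron-sulfur clusters, stood apart from its neighbours. It had 124, 114 and 116 CPM in KO libraries, against 85.8, 102 and 136 CPM in WT libraries. The genotypes overlapped, with the lowest and the highest value both in WT libraries, and the log2 fold change was 0.13 ± 0.17 (edgeR adjusted p = 0.670). It was the only subunit of the 35 with a fold change above zero in edgeR, and its sign turned to −0.01 without WT replicate 1 and to −0.03 when a trend with transcript length and GC content, described below, was taken out.

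Among the accessory subunits of the N module, Ndufv3 (chr17:31520115-31531331, plus strand), a small subunit bound to the NADH-oxidising tip, had 169, 205 and 156 CPM in KO libraries and 322, 310 and 231 CPM in WT libraries. No KO library reached the lowest WT library, and the log2 fold change was −0.71 ± 0.17 (edgeR adjusted p = 0.0415). Ndufa7 (chr17:33824572-33838317, plus strand) had 151, 189 and 131 CPM in KO libraries, against 258, 266 and 239 CPM in WT libraries, a log2 fold change of −0.70 ± 0.15 (edgeR adjusted p = 0.0342). Ndufs6 (chr13:73319838-73328542, minus strand), a zinc-binding subunit, had 75.1, 99.3 and 66.6 CPM in KO libraries and 140, 140 and 109 CPM in WT libraries. KO replicate 2 was the nearest to the lowest WT library, replicate 3, without reaching it, and the log2 fold change was −0.69 ± 0.17 (edgeR adjusted p = 0.0474). Ndufa12 (chr10:94198720-94221443, plus strand), which takes the place of the assembly factor Ndufaf2 in the mature complex, had 46.3, 57.9 and 45.6 CPM in KO libraries and 74.6, 73.7 and 67.0 CPM in WT libraries (−0.52 ± 0.13, edgeR adjusted p = 0.0457). Ndufa2, a subunit with a thioredoxin-like fold, had the lowest fold change of the module but lay just outside the threshold: 257, 333 and 201 CPM in KO libraries, against 517, 498 and 371 CPM in WT libraries (−0.81 ± 0.21, edgeR adjusted p = 0.0502). The remaining 2, Ndufs4 and Ndufa6, had log2 fold changes of −0.49 and −0.54 without a call, and in both the genotypes did not overlap.

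The Q module joins the N module to the membrane and holds the last iron-sulfur cluster before ubiquinone. Of its 6 subunits 2 fell, Ndufs7 and Ndufa5, and the median log2 fold change was −0.44. Ndufs7 (chr10:80249121-80256794, plus strand), the core subunit that binds this last cluster, had 142, 151 and 106 CPM in KO libraries and 206, 217 and 211 CPM in WT libraries. WT libraries agreed closely and all KO libraries lay well below them, with a log2 fold change of −0.67 ± 0.15 (edgeR adjusted p = 0.0359). Ndufa5 (chr6:24518666-24528013, minus strand), an accessory subunit, had 85.3, 118 and 66.0 CPM in KO libraries, against 155, 164 and 153 CPM in WT libraries. Its log2 fold change of −0.81 ± 0.19 (edgeR adjusted p = 0.0418) was the lowest among the called members.

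Ndufs8 and Ndufs3, core subunits of the Q module, were not called. Ndufs8, which carries iron-sulfur clusters between Ndufs1 and Ndufs7, had 89.4, 99.3 and 79.1 CPM in KO libraries and 133, 131 and 110 CPM in WT libraries (log2 fold change −0.48 ± 0.13, edgeR adjusted p = 0.0616). Ndufs3 had 119, 121 and 99.1 CPM in KO libraries and 138, 173 and 139 CPM in WT libraries (−0.41 ± 0.14, edgeR adjusted p = 0.104). The genotypes did not overlap in either gene. Ndufa9, an accessory subunit near the ubiquinone site, had a log2 fold change of −0.29 without a call.

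The proximal part of the membrane arm, next to the Q module, had 8 subunits tested, of which 3 fell, and a median log2 fold change of −0.62. Ndufc1 (chr3:51404677-51408988, minus strand) had 82.0, 104 and 73.4 CPM in KO libraries and 155, 158 and 118 CPM in WT libraries. All KO libraries lay below the lowest WT library, replicate 3, and the log2 fold change was −0.74 ± 0.17 (edgeR adjusted p = 0.0372). Ndufa13 (chr8:69894180-69902558, minus strand), also known as GRIM-19, had 222, 267 and 182 CPM in KO libraries, against 398, 396 and 306 CPM in WT libraries (−0.71 ± 0.18, edgeR adjusted p = 0.0451). Ndufa1 (chrX:37187588-37191163, minus strand), a small membrane subunit, had 91.8, 130 and 92.4 CPM in KO libraries and 161, 171 and 164 CPM in WT libraries (−0.66 ± 0.15, edgeR adjusted p = 0.0395). In Ndufa1 the WT libraries agreed closely, and KO replicate 2 was the KO library nearest to them.

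Ndufa3, a small membrane subunit, had the lowest fold change of all members but was not called. It had 103, 175 and 104 CPM in KO libraries and 261, 253 and 184 CPM in WT libraries, and KO replicate 2 nearly reached WT replicate 3. The log2 fold change was −0.86 ± 0.23 (edgeR adjusted p = 0.0558). At the other end of this module stood Ndufa10, a subunit related to nucleoside kinases, with 144, 141 and 142 CPM in KO libraries and 152, 178 and 151 CPM in WT libraries (−0.17 ± 0.12, edgeR adjusted p = 0.370). The remaining 3 tested subunits, Ndufa8, Ndufa11 and Ndufc2, had log2 fold changes between −0.57 and −0.33 and no call. Ndufs5, the last subunit of this module, was listed at 0 counts in all 6 libraries, so no level of it is reported. By counting error only, a count of 0 allows up to 3 counts per library. That is 0.127 to 0.357 CPM in KO libraries and 0.139 to 0.184 CPM in WT libraries. This bound holds only if reads of Ndufs5 could be assigned to its symbol, which was not tested.

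The distal part of the membrane arm, at the far tip of the complex, had 11 subunits tested, of which 2 fell, and a median log2 fold change of −0.56. Ndufb2 (chr6:39592574-39603382, plus strand) had 101, 134 and 87.9 CPM in KO libraries and 191, 185 and 167 CPM in WT libraries. The genotypes were well separated, with a log2 fold change of −0.75 ± 0.17 (edgeR adjusted p = 0.0344). Ndufb11 (chrX:20615326-20617619, minus strand) had 185, 210 and 141 CPM in KO libraries, against 255, 292 and 291 CPM in WT libraries (−0.64 ± 0.16, edgeR adjusted p = 0.0479). Its exons share 117 bases with those of Rbm10 on the other strand, and among the other called members Ndufa13 shares 375 bases with Tssk6, Ndufb2 146 bases with Braf and Ndufs6 30 bases with Mrpl36; the library kit does not mark strand, so reads of these stretches cannot be told apart. The highest fold change of the module was that of Ndufab1, the mitochondrial acyl carrier protein, which also serves fatty acid synthesis and iron-sulfur cluster formation: 142, 154 and 109 CPM in KO libraries and 161, 177 and 146 CPM in WT libraries, overlapping (−0.26 ± 0.15, edgeR adjusted p = 0.309). The other 8 distal subunits had log2 fold changes between −0.72 (Ndufb7) and −0.30 (Ndufb3), none called, with Ndufb10 just outside the threshold (−0.66 ± 0.17, edgeR adjusted p = 0.0509).

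**Figure D2:**
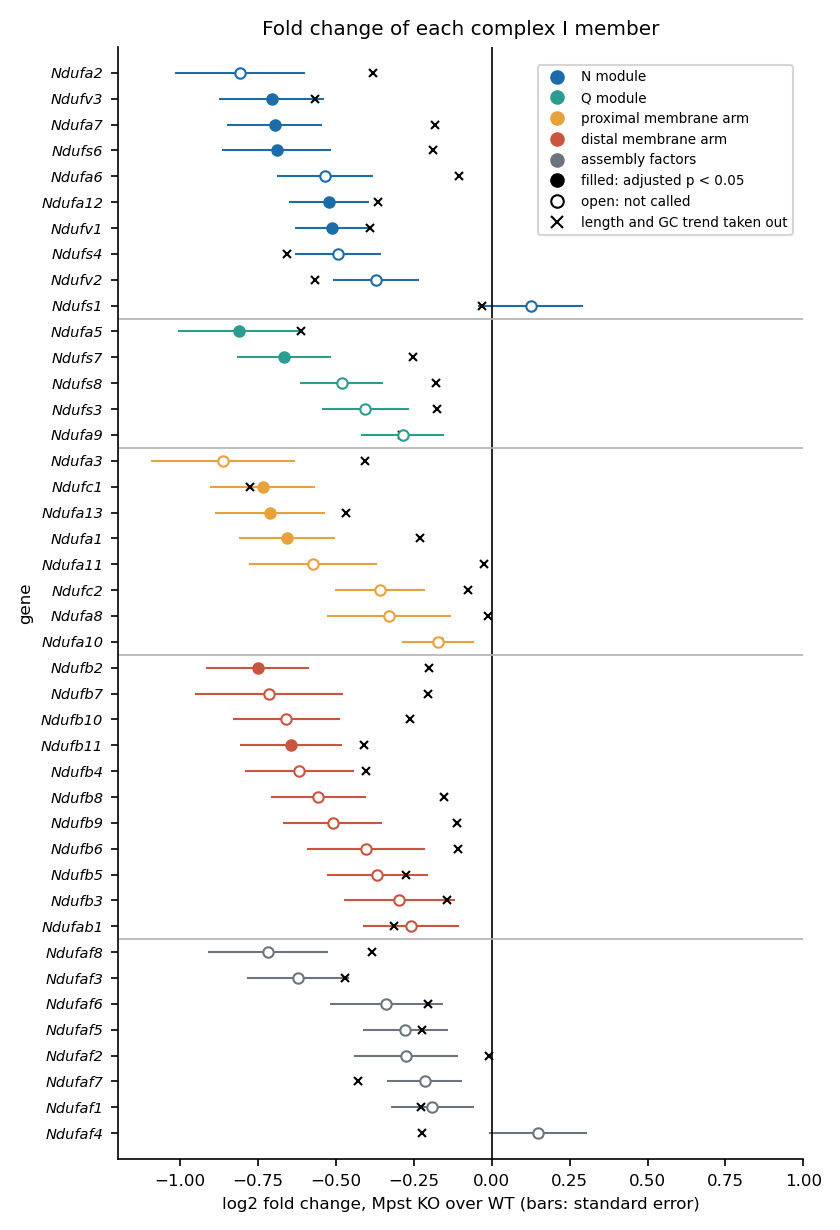
Log2 fold change, KO over WT, of the tested members, all but 1 of them drawn, with standard errors, from edgeR on 3 KO and 3 WT libraries, coloured by module and filled where the adjusted p was under 0.05; crosses give the fold change after the trend with transcript length and GC content was taken out. The 12 filled points lie between −0.81 and −0.51, in all 4 modules and not among the assembly factors.

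The assembly factors were measured at much lower levels. In TPM, counts scaled by the length of the principal transcript and then by the library total, the median over the tested subunits was 351 in KO and 408 in WT tissue, against 33.1 in KO and 32.5 in WT tissue for the assembly factors. TPM does not use the normalised library size behind CPM, and the 2 scales can differ in direction between genotypes. Ndufa10 had a mean of 142 TPM in KO and 134 TPM in WT tissue, but 142 and 160 CPM. No fold change was taken from TPM. In KO tissue the ranges did not meet, with Ndufa12 the lowest subunit at 90.1 ± 7.80 TPM and Ndufaf2 the highest factor at 64.1 ± 6.85 TPM (SD, n = 3). In WT tissue Ndufaf8, at 84.2 ± 12.7 TPM, and the lowest subunit, Ndufs1, at 71.7 ± 22.7 TPM, differed by less than their spread. The highest level per length was that of Ndufa2, 917 ± 162 TPM in KO and 1360 ± 149 TPM in WT tissue.

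Of the 8 factors, Ndufaf8 and Ndufaf3 came closest to a call. Ndufaf8, the partner of Ndufaf5, had 25.4, 28.5 and 16.6 CPM in KO libraries and 37.6, 36.4 and 41.6 CPM in WT libraries, with a log2 fold change of −0.72 ± 0.19 (edgeR adjusted p = 0.0569). Ndufaf3, which acts with Ndufaf4 on the early Q module, had 34.7, 32.2 and 24.6 CPM in KO libraries and 43.0, 54.3 and 42.9 CPM in WT libraries (−0.62 ± 0.16, edgeR adjusted p = 0.0536). In both, no KO library reached the lowest WT library; DESeq2, which called 6.13% of all genes lower, called both, and limma-voom, which called 2.66% lower, called Ndufaf3. Ndufaf4 itself had 30.5, 28.2 and 26.0 CPM in KO libraries and 30.7, 21.3 and 24.2 CPM in WT libraries, overlapping throughout (0.15 ± 0.16, edgeR adjusted p = 0.575), and was the only assembly factor with a fold change above zero.

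The other 5 factors had log2 fold changes between −0.34 and −0.19. Ndufaf6, which takes part in early assembly, had 10.02, 10.8 and 7.98 CPM in KO libraries and 11.3, 13.7 and 11.2 CPM in WT libraries (edgeR adjusted p = 0.261). Ndufaf5, which hydroxylates an arginine of Ndufs7, had 16.0, 14.96 and 13.5 CPM in KO libraries and 16.9, 19.0 and 17.8 CPM in WT libraries (edgeR adjusted p = 0.227). Neither gene overlapped between genotypes, but the gaps were under 1 CPM. Ndufaf2, the paralog that Ndufa12 replaces, had 22.2, 25.5 and 17.6 CPM in KO libraries and 28.9, 27.2 and 22.9 CPM in WT libraries. Ndufaf7, a methyltransferase, had 30.3, 26.4 and 27.7 CPM in KO libraries and 29.97, 33.7 and 34.0 CPM in WT libraries. Ndufaf1, which stabilises membrane arm intermediates, had 32.2, 29.6 and 28.0 CPM in KO libraries and 33.2, 39.0 and 30.2 CPM in WT libraries. These 3 overlapped, with edgeR adjusted p-values of 0.319, 0.279 and 0.392. Of the 11 other listed complex I assembly factors without an Nduf name, 0 were called in edgeR (3 lower and 1 higher at an unadjusted p under 0.05), with a median log2 fold change of −0.24; the smallest p was that of Ecsit, a partner of Ndufaf1, with 35.5, 34.9 and 36.9 CPM in KO libraries and 47.1, 46.0 and 49.4 CPM in WT libraries (−0.41 ± 0.11, edgeR adjusted p = 0.0506).

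Set against each other within each library, subunits lay further below the WT mean than assembly factors in all KO libraries. The mean log2 CPM over the 35 subunits, relative to the WT mean, was −0.51, −0.30 and −0.78 in KO replicates 1, 2 and 3, against 0.02, 0.10 and −0.12 in WT replicates 1, 2 and 3. Over the 8 assembly factors it was −0.20, −0.22 and −0.52 in the KO libraries and −0.0046, 0.06 and −0.06 in the WT libraries. The difference, subunits minus assembly factors, was therefore −0.31, −0.08 and −0.26 in the KO libraries and 0.02, 0.04 and −0.06 in the WT libraries: KO replicate 2 lay just below WT replicate 3 and the other KO libraries further down. Accessory subunits, of which 10 of 28 fell with a median log2 fold change of −0.60, stood against core subunits, of which 2 of 7 fell with a median of −0.41. Accessory minus core was −0.28, −0.06 and −0.32 in the KO libraries and 0.16, 0.03 and −0.19 in the WT libraries, so that the genotypes overlapped. The median transcript length was 747.5 bp over the accessory and 1623 bp over the core subunits.

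**Figure D3:**
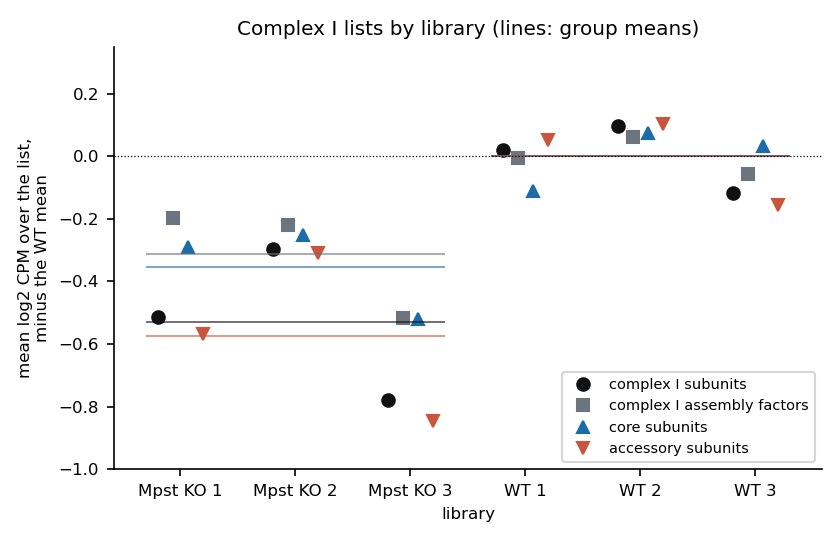
Mean log2 CPM over all tested subunits, the assembly factors, the core subunits and the accessory subunits in each library, minus the mean of the 3 WT libraries, with KO libraries on the left and horizontal lines at each group's mean. In all 4 lists the KO libraries lie below the WT libraries, and KO replicate 2 lies nearer to them than KO replicate 3 does.

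The KO libraries also ranked alike from gene to gene. KO replicate 3 was the lowest KO library in 31 of the 35 subunits and KO replicate 2 the highest in 30; among WT libraries, replicate 3 was lowest in 23 and replicate 2 highest in 21. Summed over the subunits, the level was 5500, 6345 and 4537 CPM in KO replicates 1, 2 and 3 and 7969, 8425 and 7228 CPM in WT replicates 1, 2 and 3. KO replicate 3 is also the library highest in skeletal muscle markers, and WT replicate 2 the highest of its group. Without these 2 libraries the subunit median was −0.40 with 0 members called, against 1 gene called lower among all genes tested in that fit, and the assembly factor median was −0.14.

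Fold changes differed with transcript length across the whole data set, and complex I subunits have short transcripts. The principal transcript had a median length of 875 bp over the tested subunits (419 to 2590 bp), 1322 bp over the assembly factors (678 to 3632 bp) and 2867 bp over all tested genes. Among all tested genes under 1 kb the median log2 fold change was −0.41 and 10.3% were called lower; between 1 and 2 kb it was −0.13 with 4.68% called lower, between 2 and 4 kb 0.03 with 1.46%, and from 4 kb up 0.12 with 0.78%. The 21 subunits under 1 kb had a median of −0.64 with 7 called, the 12 between 1 and 2 kb a median of −0.45 with 5 called, and the 2 longer ones, Ndufs1 and Ndufa10, a median of −0.02 with 0 called. The 2, 4 and 2 assembly factors in the same classes had medians of −0.50, −0.31 and −0.03. Across genes, Spearman's rho between length and log2 fold change was 0.54 over the 35 subunits, 0.55 over the 8 assembly factors and 0.30 over 13933 tested genes with a length. Between the GC content of the transcript and log2 fold change it was −0.37, −0.93 and −0.32 over the same genes. All these genes share the same 6 libraries.

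**Figure D4:**
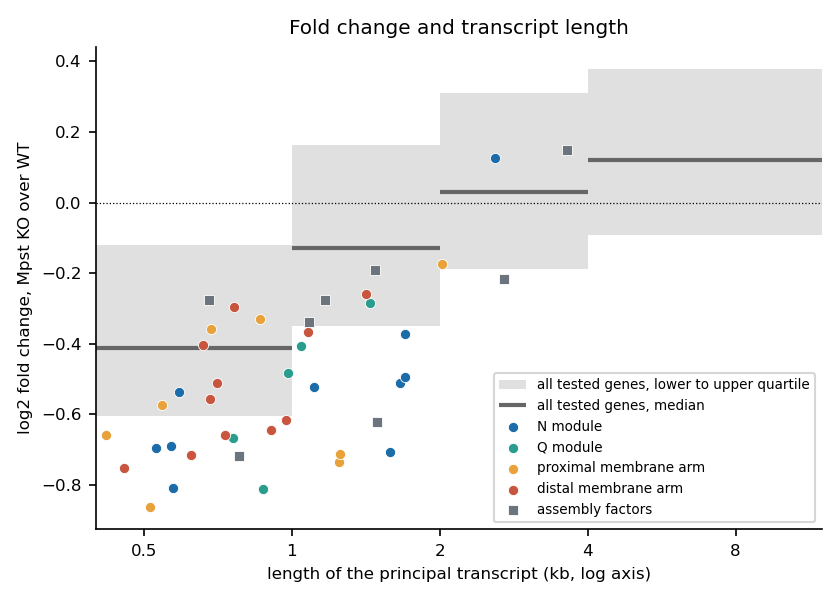
Log2 fold change, KO over WT, against the length of the principal transcript (log axis) for the tested members, all but 1 of them drawn, coloured by module, with assembly factors as squares. Grey lines give the median of all tested genes, and bands their lower to upper quartile, in 4 length classes; most subunits lie below the median of their class, and short genes as a whole lie below zero.

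When each library's trend with principal transcript length and GC content was taken out, a fit added after the data were seen, the median log2 fold change was −0.23 over the subunits, −0.23 over the assembly factors and −0.06 over all genes, so that the medians of subunits and assembly factors were equal to 2 decimals. In that fit 3 subunits were called lower, Ndufc1, Ndufs4 and Ndufv2, where 2.07% of all genes were called lower; 1 of the 12 earlier calls, Ndufc1, was kept. The N module had the lowest median there, −0.37, and the Q module and the proximal and distal arms had −0.22, −0.20 and −0.21. Accessory subunits had a median of −0.25 with 2 of 28 called, and core subunits one of −0.18 with 1 of 7 called. The same trend fitted on the summed exon length left 6 called subunits, Ndufc1, Ndufb2, Ndufv3, Ndufs4, Ndufv2 and Ndufb8, where 2.25% of all genes were called lower, and a subunit median of −0.28. That fit treats Ndufb2 and Ndufb8 as long genes, with 4375 and 2329 bp of summed exons against principal transcripts of 455 and 680 bp. With principal length their log2 fold changes were −0.20 and −0.15 (edgeR adjusted p = 0.329 and 0.554), against −0.99 and −0.65 with summed exons.

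Promoter sequences from RefSeq (assembly GRCm38.p6, 250 bases before to 50 after the annotated start) were available for 39 of the 45 members and were searched on both strands for the motifs of factors known to regulate nuclear genes of the respiratory chain. For NRF1 (GCGCANGCG) 26.5% of 34 subunit windows held a match, against 12.3% of the windows of tested genes and 6.25% of all windows. For YY1 (AANATGGCG) it was 20.6% of subunit windows, 4.50% of those of tested genes and 2.38% of all. For the ETS family, which includes GABPA (CCGGAAG), it was 11.8% of subunit windows, 16.2% of those of tested genes and 8.86% of all, and for the estrogen-related receptors (TCAAGGTCA) 0 of 34, 0.256% and 0.423%. Among the 7 assembly factor windows 2 held NRF1 letters (28.6%), 2 held ETS letters (28.6%), 1 held YY1 letters (14.3%) and 0 held those of the estrogen-related receptors. Among the 14 windows of the called subunits 3 held NRF1 letters (21.4%), 5 held YY1 letters (35.7%) and 0 held either of the other motifs. Windows are not genes: the 34 subunit windows belong to 32 genes and these 14 to 12. Ndufa5 has 2 overlapping windows that hold the same NRF1 match, which is counted in each. The stretches from 50 bases before to 50 after the start are printed for the 5 called members with a match inside them. They run 5′ to 3′ on the strand of the gene, with matches in capitals. A match near the start was the rule for printing, so these stretches do not show where matches lie in general. Ndufb11, also called, has its YY1 match at −211 from the start and is not printed. The Ndufa5 match lies at −26 from the start used here and at −190 from its other start.
Ndufs6 (chr13:73328433-73328532, minus strand): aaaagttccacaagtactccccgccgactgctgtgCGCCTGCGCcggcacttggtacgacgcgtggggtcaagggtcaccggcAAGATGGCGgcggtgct
Ndufs7 (chr10:80249399-80249498, plus strand): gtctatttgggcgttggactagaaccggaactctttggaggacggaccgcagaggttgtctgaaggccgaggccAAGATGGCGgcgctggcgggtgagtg
Ndufc1 (chr3:51408906-51409005, minus strand): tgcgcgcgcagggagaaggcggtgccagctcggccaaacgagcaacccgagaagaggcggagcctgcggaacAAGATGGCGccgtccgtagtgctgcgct
Ndufa7 (chr17:33824595-33824694, plus strand): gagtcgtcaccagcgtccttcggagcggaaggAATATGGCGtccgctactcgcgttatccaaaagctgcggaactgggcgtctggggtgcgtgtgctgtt
Ndufa5 (chr6:24527641-24527740, minus strand): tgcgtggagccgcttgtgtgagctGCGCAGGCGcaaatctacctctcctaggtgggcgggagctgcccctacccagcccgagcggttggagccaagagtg

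The capitals of Ndufs7, Ndufc1 and Ndufa7, and the second run of Ndufs6, match the YY1 letters; those of Ndufa5 and the first run of Ndufs6 match the NRF1 letters. The YY1 letters contain an ATG. All 8 YY1 matches in member windows lay on the strand of the gene, and in 6 of them this ATG was an annotated start codon; among windows of tested genes 446 of 664 matches lay on the gene's strand and 190 were at a start codon. A match is a run of letters and no binding was measured. Of 9 genes for these and other factors of nuclear respiratory genes (Nrf1, Gabpa, Gabpb1, Yy1, Esrra, Ppargc1a, Ppargc1b, Tfam and Sp1), 1 rose and 0 fell. Gabpa, the DNA-binding subunit of GABP, had 35.7, 38.0 and 46.9 CPM in KO libraries and 18.1, 19.1 and 28.7 CPM in WT libraries, without overlap (log2 fold change 0.87 ± 0.20, edgeR adjusted p = 0.0368). This call was lost when the trend with principal transcript length or with summed exon length, and GC content, was taken out. In these fits 0 of the 9 genes were called, while 323 and 337 of 13933 genes were called higher.

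Other mitochondrial and ribosomal lists also had medians below zero. Of 36 nuclear subunits of complex III, complex IV and ATP synthase 4 fell, where 2.65% of all tested genes fell. Their median log2 fold change was −0.53, beside −0.54 for complex I subunits. At an unadjusted p under 0.05 in edgeR, 27 of these 36 were lower and 0 higher, beside 27 of 35 complex I subunits lower. In 26 of the 36 every KO library lay below every WT library, beside 27 of 35 complex I subunits and 15.5% of all tested genes. Of 8 complex II genes, subunits and assembly factors together, 0 were called in edgeR (3 lower and 1 higher at an unadjusted p under 0.05), with a median of −0.22. This list is therefore not matched to the lists of subunits only. The smallest p was that of Sdhb, the iron-sulfur subunit of complex II, with 249, 255 and 210 CPM in KO libraries and 303, 345 and 373 CPM in WT libraries (−0.52 ± 0.14, edgeR adjusted p = 0.0572). Mitochondrial and cytosolic ribosomal proteins had medians of −0.37 and −0.46. Of the mitochondrial ones 4 of 78 fell and of the cytosolic ones 0 of 75, beside 2.65% of all tested genes. At an unadjusted p under 0.05 in edgeR, 42 were lower in each list, as were 12.7% of all genes. In 34 mitochondrial and 15 cytosolic ones every KO library lay below every WT library, as in 15.5% of all tested genes. With the trend on principal transcript length and GC content taken out, the median was −0.17 for complex III, complex IV and ATP synthase. It was −0.30 for the complex II subunits and assembly factors together. It was −0.20 for mitochondrial and −0.13 for cytosolic ribosomal proteins, beside −0.23 for complex I subunits. In that fit 7 mitochondrial and 2 cytosolic ribosomal proteins were called lower. Of complex III, complex IV and ATP synthase 0 were, beside 3 complex I subunits and 2.07% of all genes. Of the 7 complex I subunits encoded in mitochondrial DNA, 0 were listed under their mt-Nd symbols, so they could not be analysed under these names.

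Cell type markers moved with genotype as well. Of 10 macrophage markers 7 rose in KO tissue (Adgre1, Cd68, Itgam, Mrc1, Ctss, Fcgr1 and Gpnmb), beside 4.76% of all tested genes. The 10 summed to 1679 to 1783 CPM in KO libraries and 494 to 984 CPM in WT libraries. Of 10 adipocyte markers 2 fell, beside 2.65% of all tested genes: Lipe, the hormone-sensitive lipase, and Retn, which encodes resistin. Of these 10, 9 had a fold change below zero, as had 6966 of the 14065 tested genes. In 5 of them every KO library lay below every WT library, as in 15.5% of all tested genes. Their median log2 fold change was −0.35, and −0.29 with the trend on principal transcript length and GC content taken out. Of 5 fibroblast markers 2 rose, Dcn and Col3a1, beside 4.76% of all tested genes. With the trend on principal transcript length and GC content taken out, 1 fibroblast and 7 macrophage markers were called higher. With that on summed exon length, 0 fibroblast and 8 macrophage markers were. All genes called higher in these fits were 323 and 337 of 13933. The 6 brown or beige adipocyte markers did not move together: their log2 fold changes ran from −1.02 to 2.13 with a median of 0.16. Every KO library lay above every WT library in 3 of the 6 (2504 of the 14065 tested genes) and below in 2 (15.5% of all tested genes). The 1 called, Cox8b, fell, with 36.1, 56.5 and 46.0 CPM in KO libraries and 86.4, 80.4 and 115 CPM in WT libraries. With the trend on principal transcript length or on summed exon length, and GC content, taken out, 0 of the 6 were called. In these fits 2.07% and 2.25% of all genes were called lower. Of 5 T cell, 4 B cell and 4 endothelial markers 0 were called. In bulk tissue, fewer cells of a type and less RNA per cell cannot be told apart, and the part of these shifts in the lower level of complex I transcripts was not tested.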

How the data were processed

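The deposited files hold whole-number counts per gene symbol for 6 libraries, 1 file each, not normalised by the authors. Per the labels' protocols, libraries were made with the TruSeq RNA v2 kit from 500 ng of TRIzol-extracted RNA and sequenced as 75 bp single-end reads; the submitters' processing notes name HISAT2 2.1.0, HTSeq 0.13.5, DESeq2 1.26 and mm10. The sources used here name neither annotation nor counting settings. The counter's summary lines were left out of totals and tests; reads assigned to no feature were 8.85% to 12.2% of uniquely placed reads in KO libraries and 11.2% to 14.7% in WT libraries.

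In R 4.3.3, edgeR 4.0.16 was used: filterByExpr (14065 genes), TMM scaling and a robust two-sided quasi-likelihood F test of genotype over all 6 libraries, adjusted by Benjamini-Hochberg. Standard errors are the absolute log2 fold change divided by the root of F. Lengths, GC content and positions came from GENCODE M21 on GRCm38, the assembly behind mm10. TPM used the principal transcript. The script was tested on simulated data. Squared differences between replicates of a group were 3.27 to 23.1 times those of sampling noise (median ratio), so no library was taken for a copy.

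Members, modules, lists and tests were chosen with earlier results of these data known, so lists are described by counts and medians and get no test. Values in every library are given for called members, core subunits, assembly factors and the lowest and highest fold change of each module; of other lists, called members and the smallest p are named. The values of 1 tested member are not reported here, though counts and medians include it. Alternatives were RLE and upper-quartile scaling, DESeq2 1.42.0, limma-voom 3.58.1, no filter, a mean of at least 10 CPM, no robust estimation, thinning to the smallest library, leaving out Rn45s and Malat1, a replicate block, each library left out, and the trend with summed exon length and GC; 2 were added after the data were seen (the trend with principal transcript length, and leaving out KO replicate 3 and WT replicate 2).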

Additional observations from a re-analysis of the deposited data

How the results depend on the processing

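Median fold changes of subunits, assembly factors and modules kept their sign in all 19 alternatives. The number of members called lower, 12 (all subunits), was 24 with DESeq2 (22 subunits and 2 assembly factors), which called 6.13% of all genes lower against 2.65% in edgeR, 0 without KO replicate 3 and WT replicate 2, and 0 to 25 members (0 to 23 subunits and 0 to 2 assembly factors) with 1 library left out, where 0.00695% to 8.22% of all genes were called lower; 2 assembly factors were also called with no low-count filter and 1 with limma-voom. With the trend on summed exon length and GC taken out, 6 subunits were called and the medians were −0.28 (subunits), −0.35 (N module), −0.26 (Q module), −0.23 (proximal arm) and −0.28 (distal arm); with that on principal transcript length, 3 were called and the medians were −0.23, −0.37, −0.22, −0.20 and −0.21. Without KO replicate 3 and WT replicate 2, the medians of the assembly factors and the Q module were −0.14 and −0.28. The sign turned for Ndufs1 (−0.0096 to 0.33 with 1 library left out, the lowest without WT replicate 1; −0.035 and −0.030 in the 2 trend fits), Ndufa8 (0.046), Ndufaf2 (0.087) and Ndufaf4 (−0.18) with summed exon length, and Ndufaf4 (−0.22) with principal length. Of 817 single-gene values under alternatives, 653 kept direction and side of the threshold, 60 passed it newly, 97 lost the call and 7 turned sign. The causes were not tested, except that the trend fits remove length and GC by construction and leaving libraries out leaves fewer samples.

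Deviations of same-numbered KO and WT libraries correlated at 0.17, −0.10 and 0.30. Differently numbered libraries were not compared in this way, so whether replicate numbers pair the libraries was not tested. With the replicate number as a block, 30 members were called lower, 28 subunits and 2 assembly factors, as were 9.16% of all genes. Depth limits KO replicate 1 most, at 8054560 counts.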
